A study of Rattus norvegicus with 36 samples.

Results

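The heroin effect in blood serum was set against the heroin effect in the brain for every microRNA (miRNA) name detected in both, to ask whether serum mirrors brain. A name counted as detected with at least 10 counts in at least 6 of the 12 serum libraries and at least 12 of the 24 brain libraries, which left 216 of the 861 names in the table. In the whole table, 235 names were detected in serum and 467 in brain, and none of the 155 computationally predicted names was detected in both. The libraries are of small RNA from prefrontal cortex (PFC), from nucleus accumbens (NAc, a part of the ventral striatum) and from serum of male Sprague Dawley rats, with 6 heroin and 6 saline libraries from each tissue and 36 in all. The rats were 8 weeks old when they arrived, had 1 week to settle, were fitted with a catheter in the jugular vein and had a further 1 week to recover. They then worked for intravenous heroin at 0.075 mg/kg in each infusion, or for saline, in 10 daily sessions of 6 hours, and were killed no more than 60 min after the last. Surgery and daily sessions were shared by both groups, so they do not separate heroin from saline, and no group without them shows their own effect. Brain RNA was extracted with Trizol and serum RNA with a kit for exosomes, and libraries were size-selected for inserts of 18 to 40 bp. The replicate numbers run from 1 to 6 for heroin and from 7 to 12 for saline in every tissue, but the labels do not tie a number to an animal, and nothing beyond the label says that libraries of a group came from separate rats.

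miRNAs are short RNAs that guide Argonaute proteins to messenger RNAs, which they find mainly through the seed, the bases just after the 5′ end. Neurons hold miRNAs such as miR-9 and those of the imprinted Dlk1-Dio3 region at high levels, while the liver, muscle, vessel walls and blood cells each have their own set. miRNAs in serum are carried in vesicles such as exosomes and in protein complexes, most come from blood cells and well perfused organs, and a miRNA in serum can have several sources at once.

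The comparison turned on a small number of miRNAs, whose mature sequences from RefSeq (rat build GRCr8) are printed with the seed, bases 2 to 8, in capitals. The first 5 are miRNAs of neurons or of the Dlk1-Dio3 region, or their antisense partner, the next 3 are a let-7 member and the vascular miR-126a-3p and miR-10a-5p, and the last is miR-34c-3p of ciliated cells.
miR-9a-5p: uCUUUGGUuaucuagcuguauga
miR-9b-3p: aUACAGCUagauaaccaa
miR-127-3p: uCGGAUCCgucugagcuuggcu
miR-379-5p: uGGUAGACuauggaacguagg
miR-129-5p: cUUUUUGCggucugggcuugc
let-7i-5p: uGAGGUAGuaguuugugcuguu
miR-126a-3p: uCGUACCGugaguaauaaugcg
miR-10a-5p: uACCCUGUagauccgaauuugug
miR-34c-3p: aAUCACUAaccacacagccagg
No 2 of these share a seed. miR-9b-3p is the reverse complement of miR-9a-5p over 18 bases and is annotated on the opposite strand of the same locus, and its counts differed from those of miR-9a-5p by at most 5%. This was general. The table held 31 pairs of names with nearly the same counts, 30 of them had both sequences, and 29 were reverse complements over 18 to 22 bases on opposite strands. All 19 pairs with both names among the 216 were of this kind. In the counts of these pairs the miRNA and its antisense partner cannot be told apart, and such a pair is 1 signal under 2 names. Another 6 pairs among the 216 are reverse complements over at least 15 bases but are not among the pairs with nearly the same counts.

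Serum libraries were shallow beside brain, with 0.157 to 2.78 M counts (M, 1e+06; median 0.456), where PFC libraries had 3.42 to 20.8 M and NAc libraries 5.89 to 24.8 M. The 216 names took 99.5% to 99.7% of the serum counts, 95.1% to 97.2% of PFC counts and 95.2% to 97.0% of NAc counts. Levels are given as CPM, a name's count divided by the library's total and multiplied by 1e+06, and effects as log2 of heroin over saline with the standard error, from edgeR's quasi-likelihood fit over all 36 libraries. The tissues showed their markers: the neuron-enriched list summed to 310805 to 397963 CPM in brain libraries and 15146 to 55249 in serum, and the red cell list to 171.7 to 801.7 CPM in brain and 29459 to 88541 in serum. Serum saline replicate 12 stood apart from the other serum libraries, with a mean correlation of 0.838 with them against 0.885 to 0.949 for the rest. Its scaling factor in edgeR (TMM) was 0.7765, against 1.419 to 2.398 in the other serum libraries. The edgeR effects include these factors and the CPM values do not, so the 2 can differ.

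In edgeR, no miRNA passed an adjusted p of 0.05 in both serum and brain, as the mean brain effect gave 0 calls. In the fit reported, the estimated serum effects did not rise with the estimated brain effects across miRNAs. The serum effect and the mean of the PFC and NAc effects had a Pearson r of -0.21 and a Spearman rho of -0.20 over the 216 names, and 104 of them (48.1%) had the same sign. Among those, 13 were higher after heroin in both and 91 lower in both, another 48 were higher in serum and lower in brain, and 64 lower in serum and higher in brain. Taken against each compartment's own median, 90 names (41.7%) lay on the same side. These are descriptions: the points share libraries and library scaling, and repeated names stand in them 2 times. With each repeated name counted once, r was -0.24 over 197 names. Over the 34 names whose mean reached 1000 CPM in both serum and brain, r was -0.41, with 15 names of the same sign. The sign of r was not stable, since it was 0.08 without serum saline replicates 10 to 12. For the mean brain effect, 5 names had an unadjusted p under 0.05 in edgeR, where chance alone would give 10.8. These relations therefore cannot tell whether serum fails to mirror brain or whether brain effects were too small to measure.

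The estimated effects in the PFC and the NAc did not rise together either. They had an r of -0.12 over the 216 names and the same sign in 91 of them (42.1%). However, edgeR called 0 names in each region, and the median standard error of an effect was 0.35 in both. Estimates this uncertain can give a low r even where regions respond alike. The r and the share of signs therefore do not show that the PFC and the NAc differ. Serum had the same sign as the PFC in 132 names (61.1%, r -0.03, Spearman rho 0.13). It had the same sign as the NAc in 91 (42.1%, r -0.32, Spearman rho -0.35). In 49 names (22.7%) the sign was the same in all 3 tissues, 43 of them lower and 6 higher after heroin. Of all 216 effects, 155 were negative in serum, 141 in the PFC and 112 in the NAc. These leans alone put more names lower than higher in all 3 and raise the share of the same sign between serum and PFC. The counts of signs are therefore not by themselves a shared decrease.

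**Figure D1:**
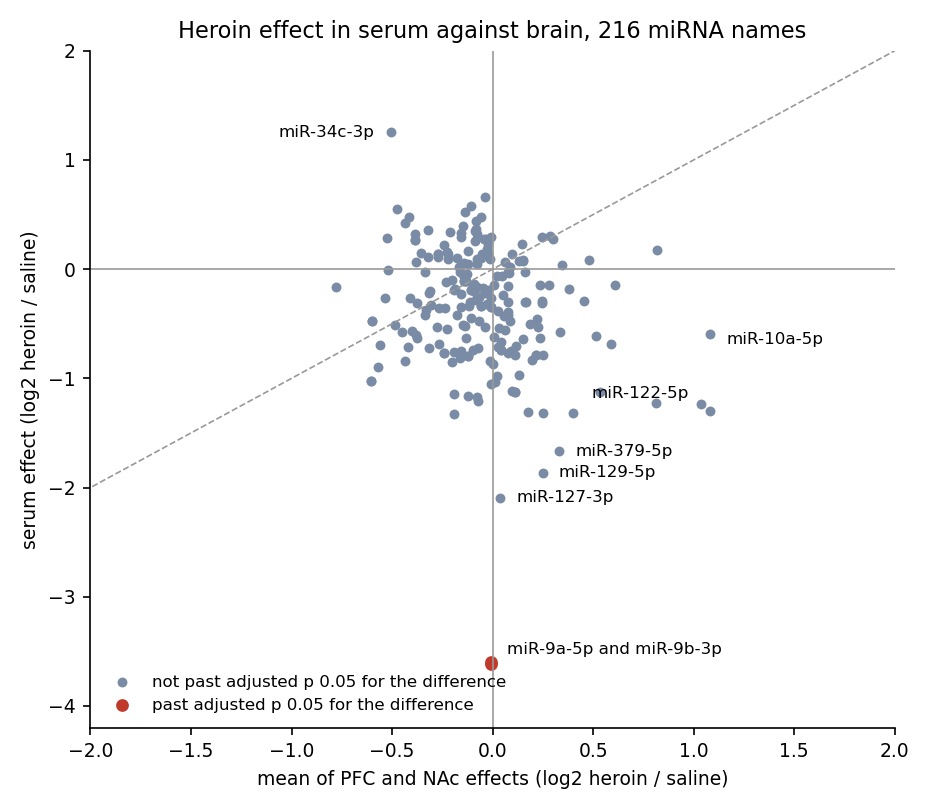
Each point is 1 of 216 miRNA names, with the mean of its PFC and NAc effects on the x axis and its serum effect on the y axis, both as log2 of heroin over saline, and the dashed line marks equal effects. The cloud shows no upward slope (r -0.21), and the overlapping red points of miR-9a-5p and its antisense name miR-9b-3p lie at about -3.6 in serum and near 0 in brain.

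The difference between compartments was tested for each name as the interaction of treatment and compartment, the serum effect minus the mean brain effect. In edgeR with Benjamini-Hochberg adjustment, 2 of 216 names passed an adjusted p of 0.05 (0.926%), miR-9a-5p and miR-9b-3p, both with a lower effect in serum than in brain. At an unadjusted p under 0.05 there were 27 names (12.5%), where chance alone would give 10.8. That excess depended on the fit: there were 9 in limma-voom with weights per tissue and 19 of 197 with repeated names counted once. Leaving out serum heroin replicate 4 gave 14, and leaving out serum saline replicate 7 gave 39. The names share libraries, so the number expected by chance is only a rough guide. Serum against the PFC alone called the same 2 names (0.926%), with 14 at an unadjusted p under 0.05 (6.48%), and so did serum against the NAc alone (0.926%), with 29 (13.4%). The differences leaned to one side, 143 negative and 73 positive with a median of -0.19, and that lean depended on scaling. The median was -0.07 with scaling factors computed within each tissue, 0.21 with library size alone, 0.22 on log2(TPM + 1) and -0.01 without serum saline replicate 12, so the differences given here stand relative to a median of -0.19.

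The depth and spread set how small a difference could be seen. The median standard error of a difference was 0.44, and the 95% interval reached 0.89 to either side in the median name. Only 47 of 216 intervals lay wholly between -1 and 1, and 134 between -1.5 and 1.5. For the other 169 names a difference of 1 in either direction was not excluded, so names without a call are not shown to respond alike.

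miR-9a-5p is among the most abundant miRNAs of neurons and of neural progenitors and was the only miRNA, under its own name and its antisense name, whose serum and brain effects differed past the threshold. In serum its level ranged from 70.9 to 146.4 CPM after heroin (median 89.4) and from 38.1 to 3195 CPM after saline (median 449.5). All 6 heroin libraries lay below the saline median, yet the groups overlapped, because saline replicates 7 to 9 held 133.4, 38.1 and 39.3 CPM and replicates 10 to 12 held 1068, 3195 and 765.7. In the PFC it ranged from 134616 to 184740 CPM after heroin (median 162748) and from 70706 to 206558 after saline (median 173836). In the NAc it ranged from 113189 to 168253 CPM (median 129592) against 126255 to 178902 (median 154294). The brain groups overlapped throughout.
The effect on miR-9a-5p was -3.60 ± 0.63 in serum, 0.01 ± 0.56 in PFC and -0.03 ± 0.56 in NAc, and the difference was -3.59 ± 0.73 (edgeR, adjusted p = 0.00184), or -3.40 relative to the median of all names. Its antisense name miR-9b-3p gave -3.61. Against the PFC alone the difference was -3.61 ± 0.83 (edgeR, adjusted p = 0.0105) and against the NAc alone -3.57 ± 0.82 (adjusted p = 0.0122). The call rests on serum saline replicates 10 to 12: without them the difference was 0.41 (adjusted p = 0.63). It held without any single library, at -3.85 to -2.72, and was lost in an exact permutation test over libraries (p = 0.184, adjusted p = 0.889), in limma and limma-voom, and with the replicate number as a block (-2.79, adjusted p = 0.191).

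Some other miRNAs that neurons hold followed the same serum libraries without passing. miR-127-3p, from the Dlk1-Dio3 region, ranged from 61.6 to 162.6 CPM in heroin serum (median 95.7) and from 38.1 to 760.4 CPM in saline serum (median 222.1), with 387.9 CPM or more in replicates 10 to 12 and 56.2 or less in 7 to 9. In the PFC its medians were 46991 CPM after heroin and 46262 after saline, and in the NAc 41525 and 46200, with overlapping groups. The serum effect was -2.09 ± 0.50, the PFC effect 0.01 ± 0.46 and the NAc effect 0.06 ± 0.46. Their difference was -2.13 ± 0.59 (edgeR, adjusted p = 0.0627), which DESeq2 called (adjusted p = 0.0143) and which turned to 0.69 without serum saline replicates 10 to 12.
miR-379-5p, from the same region, had a median of 33.5 CPM in heroin serum and 61.7 in saline serum, where it ranged from 0 to 181.9, against 5141 to 15261 CPM over all brain libraries. Its difference was -2.0 ± 0.62 (edgeR, adjusted p = 0.102). miR-129-5p, a miRNA of neurons and neuroendocrine cells, ranged from 18.5 to 87.3 CPM in heroin serum and from 6.35 to 417.5 CPM in saline serum, with a difference of -2.12 ± 0.72 (adjusted p = 0.144). Both overlapped between groups in every tissue, and both turned without serum saline replicates 10 to 12, to 0.71 and 2.01.

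Taken as a list, 8 of the 14 neuron-enriched miRNAs were detected in both compartments, 1 passed lower and all 8 differences were negative, beside 2 calls and 143 negative differences over all 216 names. The median difference was -0.83, beside -0.19 over all names, with a median serum effect of -0.73 and a median brain effect of 0.02. Without serum saline replicates 10 to 12 the median was 0.45 and 1 of 8 was negative. With library size alone it was -0.46 with 5 of 8 negative, and on log2(TPM + 1) -0.38 with 6 of 8. Of the Dlk1-Dio3 region, 7 of 18 miRNAs were detected, none passed, all 7 were negative (143 of 216 over all names) and the median was -0.90. It became 0.68 without those 3 libraries, -0.35 with library size alone (6 of 7 negative) and -0.29 on log2(TPM + 1) (5 of 7). The lists share miR-127-3p and miR-434-3p, which has an antisense partner of nearly the same counts. miR-128-3p, a neuronal miRNA of 10744 to 46801 CPM in serum, did not follow them, with a difference of -0.20 ± 0.43 whose sign turned under several settings. Its serum medians were 19830 CPM after heroin and 17760 after saline. For the detected members not described above, serum medians after heroin and saline were 552.8 and 423.1 CPM for miR-218a-5p and 26.75 and 28.3 for miR-434-3p. They were 3594 and 5256 CPM for miR-7a-5p and 9.547 and 17.96 for miR-9a-3p, all with overlapping ranges. The summed level of the neuron-enriched list in serum ranged from 18535 to 37810 CPM after heroin and from 15146 to 55249 CPM after saline, with the highest value in saline replicate 11. In serum, miR-137-3p had no count in any library, miR-153-3p had 1 count in all, and miR-124-3p, the most widely used marker of neurons, had at most 10 counts in a library. The part of brain-derived RNA in the serum values was not tested.

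**Figure D2:**
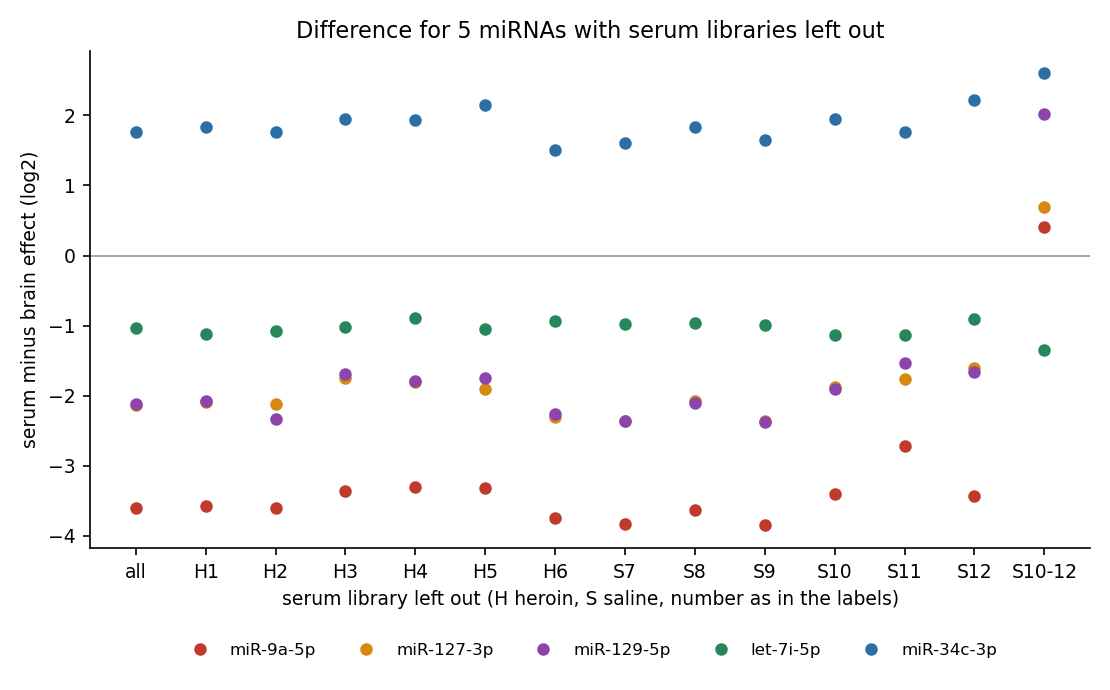
Serum effect minus mean brain effect (log2) on the y axis for 5 miRNAs, with all libraries and with each serum library left out, and at the right without saline replicates 10 to 12 together. Leaving out any single library keeps every point on its side of 0, while without the 3 saline libraries miR-9a-5p, miR-127-3p and miR-129-5p lie above 0, let-7i-5p stays below and miR-34c-3p stays above.

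let-7i-5p, a member of the let-7 family that restrains growth and is abundant in blood, had serum and NAc effects of opposite sign. In serum it ranged from 56140 to 113162 CPM after heroin (median 87869) and from 81792 to 187492 CPM after saline (median 113308). In the NAc it ranged from 36279 to 51347 CPM after heroin (median 44163) and from 29046 to 39343 CPM after saline (median 35327). In serum 6 of 6 heroin libraries lay below the saline median and in the NAc 6 of 6 lay above it, though the groups overlapped in each.
In the PFC the let-7i-5p medians were 38823 CPM after heroin and 36117 after saline. The effects were -0.79 ± 0.25 in serum, 0.03 ± 0.25 in PFC and 0.47 ± 0.25 in NAc, and the difference was -1.04 ± 0.31 (edgeR, adjusted p = 0.0904; exact permutation p = 0.0215, adjusted p = 0.873). DESeq2 called it (adjusted p = 0.0488). Without serum saline replicates 10 to 12 it was -1.35 and passed (edgeR, adjusted p = 0.0096), together with miR-98-5p, which carries the same seed, and miR-142-3p of leukocytes.
All 9 let-7 family miRNAs with the seed GAGGUAG were detected, and 8 of 9 differences were negative, from -1.04 to 0.01 with a median of -0.46. Their median serum effect was -0.35 and their median brain effect -0.01, and no member passed. Unlike the neuron-enriched list, the family's median lay lower, at -0.76, without serum saline replicates 10 to 12. The family summed to 354401, 282266 and 311844 CPM in serum saline replicates 7 to 9. In replicates 10 to 12 it summed to 191348, 189298 and 146619 CPM, and in heroin serum to 149198 to 280601. The fit without replicates 10 to 12, in which let-7i-5p and miR-98-5p passed, therefore kept only the serum saline libraries where the family was highest. On log2(TPM + 1) the family's median was -0.10 with 6 of 9 negative, and 4 members have antisense partners of nearly the same counts.

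miR-126a-3p, the main miRNA of endothelial cells, ranged from 2949 to 6446 CPM in heroin serum (median 3596) and from 3799 to 6424 in saline serum (median 5386), and 5 of 6 heroin libraries lay below the saline median. Its NAc medians were 4057 CPM after heroin and 3671 after saline, and its PFC medians 5371 and 5282. The difference was -0.84 ± 0.29 (edgeR, adjusted p = 0.144), called by DESeq2 (adjusted p = 0.0488), and was -0.55 without serum saline replicate 12.
miR-10a-5p lies among the Hox genes and is enriched in endothelium, and its largest effect was in the PFC. In the PFC it ranged from 30.2 to 296.5 CPM after heroin (median 114.6) and from 17.2 to 75.0 CPM after saline (median 29.1), and the saline median was exceeded in 6 of 6 heroin libraries, with overlapping groups. In serum the medians were 1682 CPM after heroin and 1830 after saline. The PFC effect was 1.72 ± 0.49, the NAc effect 0.45 ± 0.47, the serum effect -0.60 ± 0.47 and the difference -1.68 ± 0.58 (edgeR, adjusted p = 0.144). Of the 6 vascular miRNAs all were detected, none passed and 4 were negative, a share near that of all names (143 of 216). The median difference was -0.94, but -0.25 without serum saline replicates 10 to 12, -0.60 without replicate 12 alone, -0.41 with library size alone and -0.36 on log2(TPM + 1), with miR-126a-5p at 0.30 and miR-145-5p at 0.50 on the other side.

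**Figure D3:**
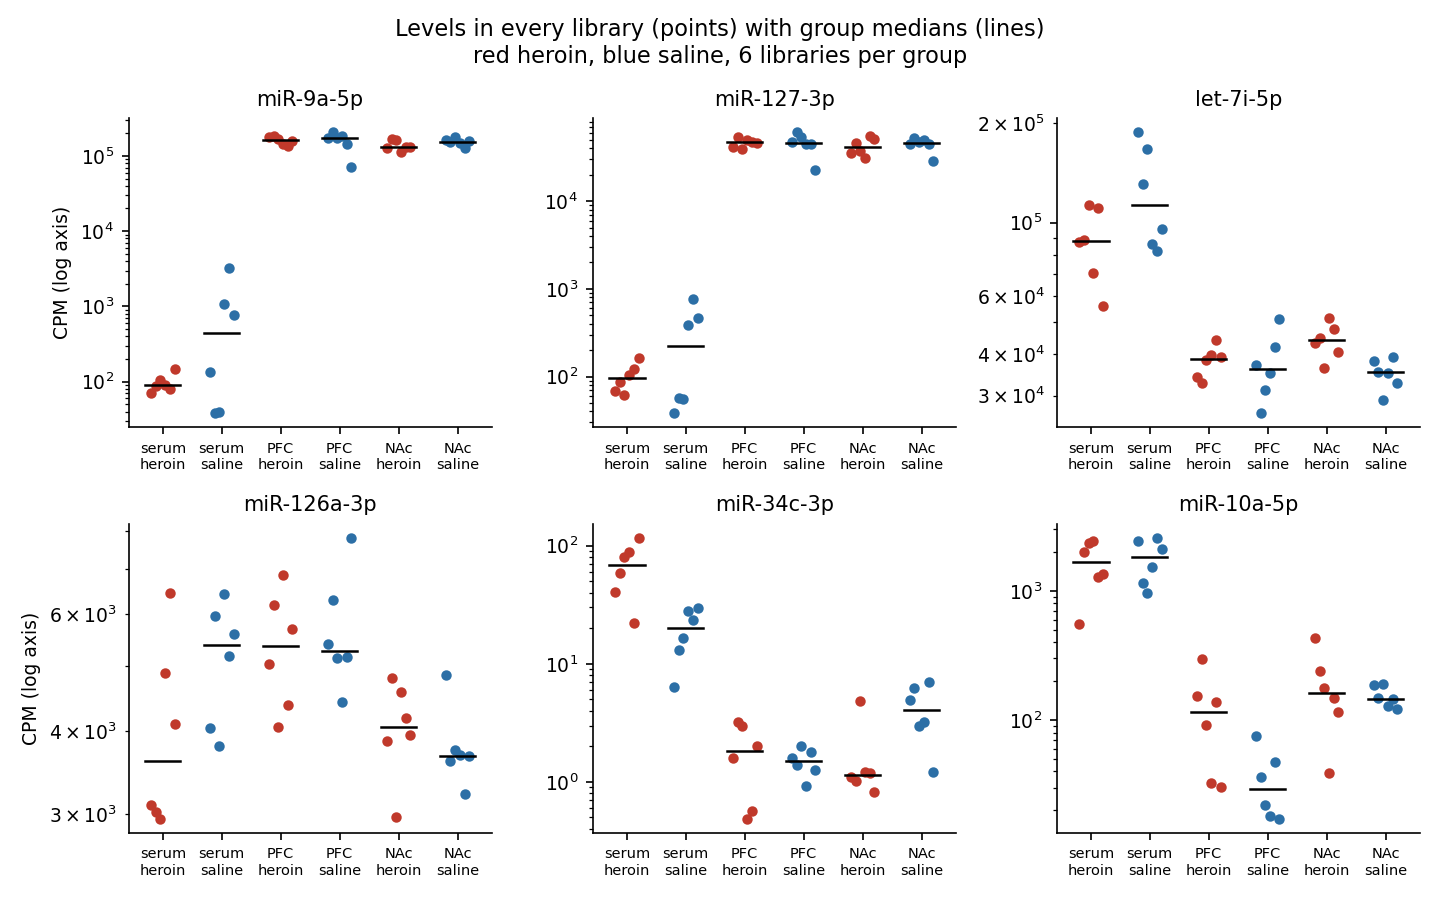
Levels of 6 miRNAs in CPM on a log axis, with 1 point per library, a line at each group's median, heroin in red and saline in blue. miR-9a-5p and miR-127-3p split the serum saline libraries into 3 low and 3 high ones, let-7i-5p lies lower after heroin in serum and higher in the NAc, and miR-34c-3p lies higher after heroin in serum and lower in the NAc, with overlap in every panel.

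miR-34c-3p, which multiciliated cells make together with miR-34b, had the smallest p among positive differences. In serum it ranged from 22.1 to 117.1 CPM after heroin (median 69.1) and from 6.35 to 29.9 CPM after saline (median 19.9). In the NAc it ranged from 0.81 to 4.80 CPM after heroin (median 1.15) and from 1.22 to 6.94 CPM after saline (median 4.06), and in the PFC the medians were 1.82 and 1.5. In serum all 6 heroin libraries exceeded the saline median with a small overlap, and in the NAc 5 of 6 lay below it, replicate 3 being the exception.
The effects on miR-34c-3p were 1.25 ± 0.50 in serum, 0.17 ± 0.49 in the PFC and -1.18 ± 0.46 in the NAc. The difference was 1.76 ± 0.61 and did not pass (edgeR, adjusted p = 0.144). Its exact permutation p over libraries was 0.00101, with an adjusted p of 0.219. DESeq2 (adjusted p = 0.0488), limma on log2(TPM + 1) (0.0117) and edgeR with library size alone (0.0383) called it, and without serum saline replicates 10 to 12 it was 2.60 (adjusted p = 0.052). It was positive in every setting, between 1.44 and 2.60. Brain levels of a few CPM leave the brain side of this value thin.
Of the 8 miRNAs listed for ciliated cells and choroid plexus, 4 were detected and none passed. miR-34b-3p, which has the same seed AUCACUA as miR-34c-3p, had a difference of 0.81, miR-34c-5p, the other arm of the miR-34c hairpin, had -0.41, and miR-204-5p of the choroid plexus had -0.62. The arms of miR-34c therefore had differences of opposite sign in the fit reported, and the median of the list was 0.20. It ranged from -0.07 to 1.43 with single libraries left out, the ends being without serum heroin replicate 6 and without serum saline replicate 12. On log2(TPM + 1) the median was 1.18, on log2(TPM + 10) 0.83 and without serum saline replicates 10 to 12 1.99. In these settings 0 of 4 differences were negative, so the arms did not have opposite signs. With library size alone the median was 0.98 with 1 of 4 negative. The summed level of the list in serum ranged from 116.4 to 732.7 CPM after heroin and from 114.3 to 923.5 CPM after saline.

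**Figure D4:**
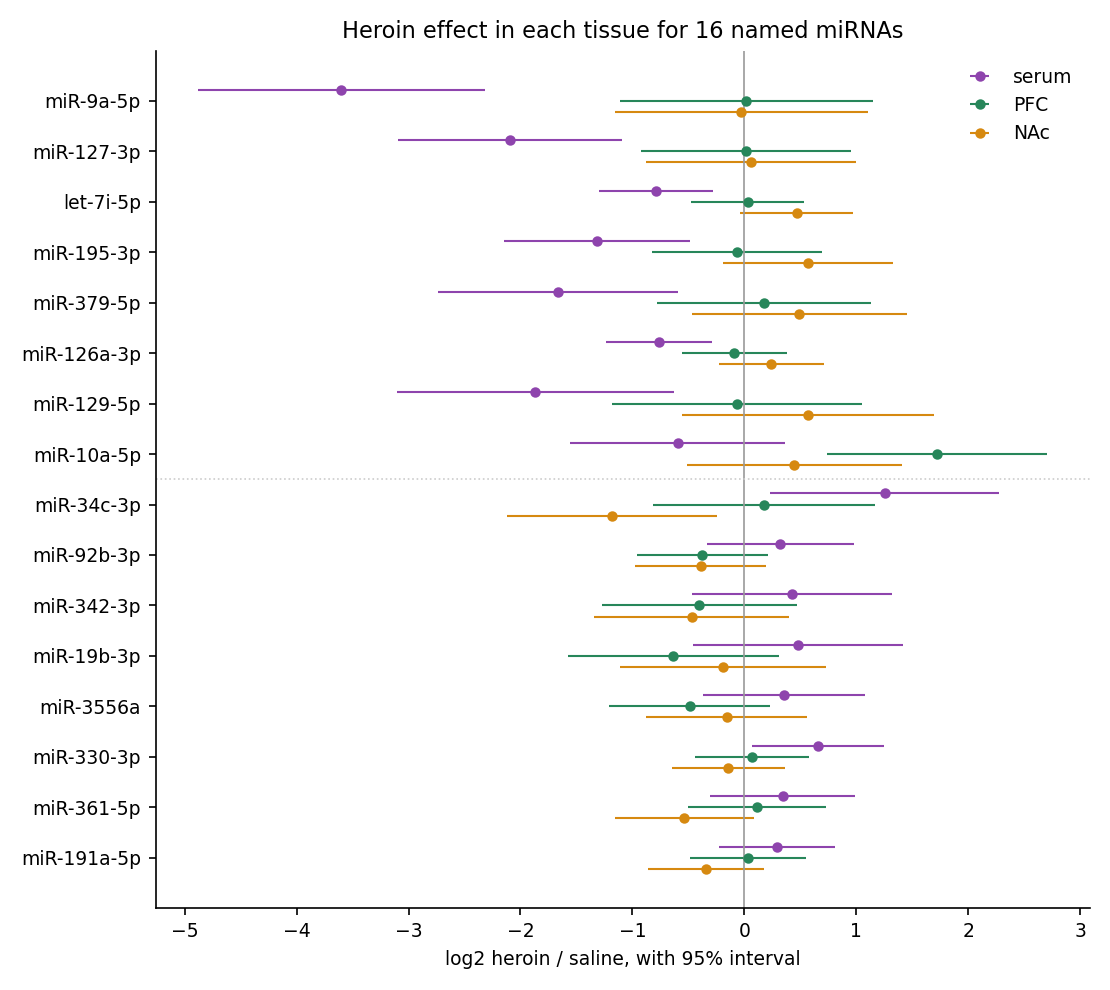
Heroin effect (log2 of heroin over saline) on the x axis with its 95% interval in serum, PFC and NAc for 16 miRNAs. They are the 8 with the smallest p for the difference in each direction, negative above the dotted line and positive below it. The serum points of the upper set lie left of the brain points, and intervals of the lower set overlap widely apart from miR-34c-3p.

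The other miRNAs among the 8 with the smallest p in each direction did not pass in edgeR. miR-195-3p had a difference of -1.57 ± 0.49 (adjusted p = 0.102). Among positive values miR-92b-3p stood at 0.71, miR-342-3p of lymphocytes at 0.86, miR-19b-3p of the miR-17 cluster at 0.90, miR-3556a at 0.68, miR-330-3p at 0.69, miR-361-5p at 0.55 and miR-191a-5p at 0.45, all with adjusted p of 0.453 to 0.613. miR-3556a is the reverse complement of miR-29a-3p over 18 bases, and miR-29a-3p stood at 0.31. Leaving out 1 library moved some of these values: miR-3556a was 1.2 without serum saline replicate 12, and without PFC saline replicate 8 miR-342-3p was 0.55 and miR-19b-3p 0.58.

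Blood, liver and muscle miRNAs, whose lists summed to higher CPM in serum than in brain, gave no call. Red cell miRNAs numbered 5 of 5 detected with a median difference of -0.30 (-0.66 without PFC saline replicate 12, -0.13 without serum saline replicate 8 and 0.20 with library size alone), including miR-451-5p at 0.28 ± 0.51 and miR-144-5p at -0.68 ± 0.62. The summed level of the red cell list was 29459 to 88541 CPM in heroin serum and 37465 to 87418 in saline serum. Leukocyte and inflammation miRNAs numbered 8 of 9, 4 negative, with a median of 0.09 (0.47 with library size alone, and 0.05 to 0.28 with single libraries left out), including miR-146a-5p at 0.49 ± 0.40 and miR-142-3p at -0.84 ± 0.40. Their summed level ranged from 30808 to 54842 CPM in heroin serum and from 25452 to 38567 in saline serum.
miR-122-5p, which hepatocytes make in quantity, had the largest standard error of those named, with a difference of -2.27 ± 1.42 (edgeR, adjusted p = 0.511). Its brain part rested on heroin replicate 2 of the PFC and of the NAc, at 86.9 and 97.0 CPM, where the medians of those groups were 2.90 and 2.02. Without both libraries the difference was 0.78. The liver list had 3 of 5 detected and a median of -0.57, which was 0.0057 without serum saline replicate 12 and 0.07 with library size alone.
miR-1-3p of striated muscle stood at -1.0 ± 0.47, but at -0.28 without serum saline replicate 12. Its list had 4 of 5 detected and a median of -0.26, which was 0.31 without that library, -0.72 without PFC saline replicate 8 and 0.32 with library size alone. miR-148a-3p, the leading miRNA of serum, stood at -0.75 ± 0.58, and at -0.30 without serum saline replicate 12.

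No member of the other lists passed. The miR-30 family (5 of 5) had a median difference of -0.08, the miR-17 cluster and its paralogs (7 of 9) 0.09, and the miR-200 and miR-183 epithelial miRNAs (5 of 8) 0.03. The miR-29 family (2 of 3) had 0.36, with miR-29b-3p at 0.41, and the mesenchymal list (2 of 3) 0.27, with miR-199a-3p at 0.53. From the oligodendrocyte list only miR-219a-2-3p (1 of 4) was detected, at 0.03 ± 0.41. Of 11 miRNAs that earlier studies tied to opioids or to reward, 4 were detected in both compartments, all with small positive values and a median of 0.12, including miR-181a-5p at 0.36 ± 0.29 and miR-23b-3p at 0.10. With single libraries left out these medians ranged from -0.16 to 0.04 for miR-30, -0.30 to 0.95 for the epithelial list, 0.21 to 0.66 for miR-29, 0.04 to 0.48 for the mesenchymal list and 0.07 to 0.28 for the list of opioids and reward. For the miR-17 cluster the range was -0.00026 to 0.34. With library size alone these 6 medians ran from 0.31 to 0.85, where the median of all names was 0.21.

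**Figure D5:**
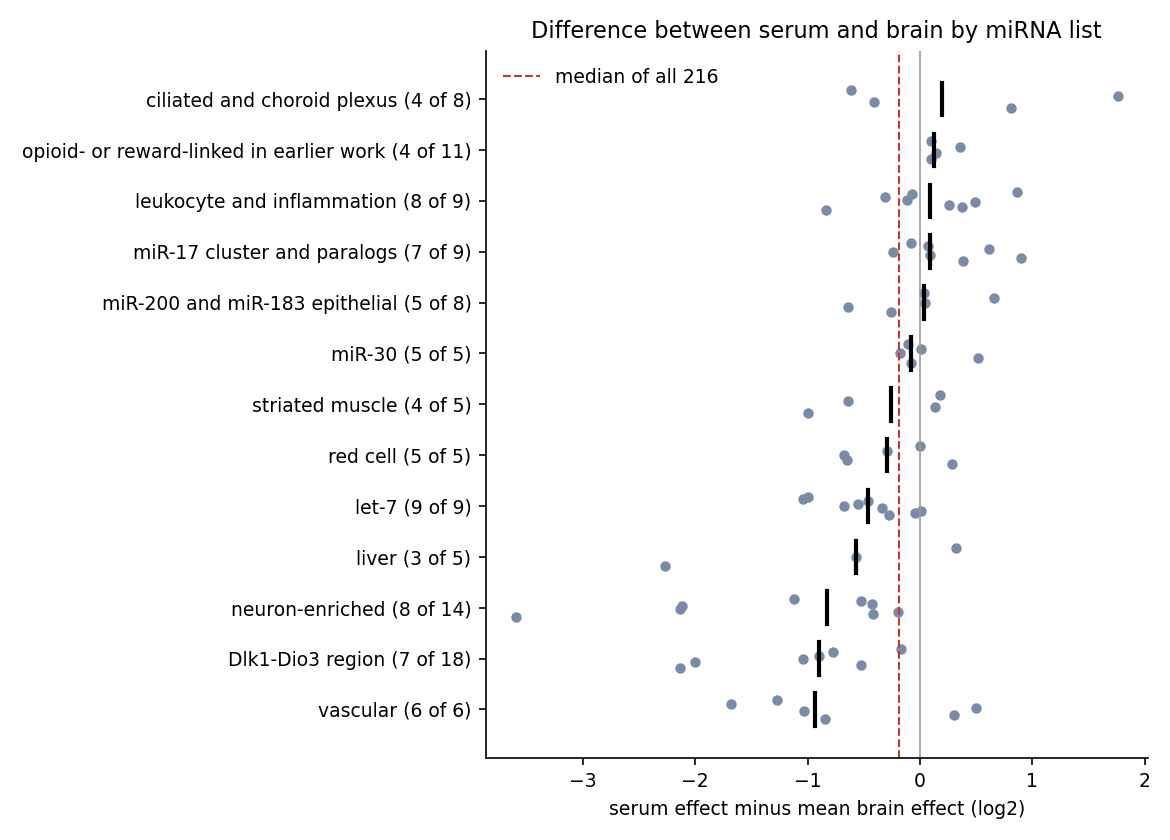
Serum effect minus mean brain effect (log2) on the x axis for the members (points) and the median (black bar) of each list with at least 3 members detected, with the number detected of the number listed. The neuron-enriched (-0.83), Dlk1-Dio3 (-0.90) and vascular (-0.94) medians lie farthest below the median of all 216 names at -0.19, marked by the dashed line.

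The mean of the serum, PFC and NAc effects was also tested. A shared effect would raise this mean, but so can an effect in 1 tissue alone, so the test does not decide whether an effect is shared. In edgeR 0 of 216 names passed (0%), the smallest adjusted p was 0.0893, that of miR-9a-5p through its serum value, and 19 had an unadjusted p under 0.05 (8.80%). DESeq2 called 2. Within compartments, edgeR's fit of all tissues together called 4 names in serum (1.85%, with 36 or 16.7% at an unadjusted p under 0.05), all lower: miR-9a-5p, miR-9b-3p, miR-127-3p and miR-30c-2-3p, the last named after its value was seen (-1.32 ± 0.35). It called 0 in the brain mean, the PFC and the NAc (0% each), where 5 (2.31%), 17 (7.87%) and 1 (0.463%) had an unadjusted p under 0.05. With serum fitted alone, which does not borrow the spread of brain libraries, edgeR called 0, with 11 at an unadjusted p under 0.05, and miR-9a-5p had an adjusted p of 0.157. The heroin and saline libraries of a tissue failed to overlap in 0 of 216 names in each of the 3 tissues (0%).

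Names with the same sign in all 3 tissues were ranked by the smallest of their 3 ratios of effect to standard error. The 4 ranked highest in each direction are given here, and the largest such ratio was 1.08, that of miR-210-3p. Among those lower in all 3, miR-210-3p, a miRNA induced by low oxygen, had a mean effect of -0.74 ± 0.29 (edgeR, unadjusted p = 0.0148, adjusted p = 0.387), from -1.02 in serum, -0.67 in the PFC and -0.54 in the NAc. Its medians after heroin and saline were 34.3 and 46.1 CPM in serum, 3.93 and 4.62 in the PFC and 2.31 and 3.01 in the NAc, with overlapping groups.
The mean effect was -0.49 for miR-425-3p, -0.46 for miR-125b-5p and -0.36 for miR-186-5p, all with adjusted p of at least 0.387. That of miR-125b-5p was -0.30 without serum saline replicate 12, and without PFC saline replicate 8 those of miR-425-3p and miR-186-5p were -0.27 and -0.22. miR-125b-5p, abundant in neurons and glia, is the reverse complement of miR-3588, which repeats its counts. Among those higher in all 3, miR-363-3p had 0.29, miR-3559-5p 0.17, miR-25-3p 0.12 and miR-1839-5p 0.11, and none passed.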

How the data were processed

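The deposited counts, 1 column for each of the 36 libraries, give reads per mature miRNA and were not altered. The authors deposited TPM values beside the counts, per the file headers, and each TPM equalled the count divided by the library total times 1e+06, to a relative difference of 4.9e-15, so it has no length term. The rat build rn6 and the aligner Bowtie appear, per the submitters' processing notes, with no role or version. Whether counting used strand is not given in the sources used here.

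All 216 names were fitted with edgeR 4.0.16 in R 4.3.3 (TMM, full library totals, quasi-likelihood F test, group means of 6 groups, no replicate block), with Benjamini-Hochberg adjustment over the 216 at 0.05, and effects were taken as contrasts. The standard error is the size of the log2 effect divided by the square root of F. limma 3.58.1, DESeq2 1.42.0 and an exact permutation test (924 regroupings in each tissue, log2(CPM + 1), two-sided) were alternatives. Between replicates of a group, chi-square divided by its degrees of freedom was at least 46.2, so no library repeated another of its group. Libraries of different groups were not compared in this way. P-values measure the spread between libraries, which may be partly technical.

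The 216 names, the 16 lists and the libraries left out together were chosen with earlier results of these data known. Named miRNAs are the 8 with the smallest interaction p in each direction, a fixed panel, and each list's smallest p. Added to these are 4 in each direction with the same sign in all 3 tissues, those whose smallest ratio of effect to standard error was largest. The panel members miR-124-3p, miR-132-3p and miR-223-3p were not among the 216. Mature sequences of 198 of the 216 were matched by name in RefSeq.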

Additional observations from a re-analysis of the deposited data

Results flagged for a closer look

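The difference between the serum and the mean brain effect passed for miR-9a-5p at -3.59 and for its antisense name miR-9b-3p at -3.61 (log2).

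In groups of 6 libraries, 26 of 228 group and miRNA combinations (11.4%) had an end library farther from its neighbour than Dixon's 95% limit on log2(CPM + 1), where chance gives about 1 in 20. The miRNAs share libraries, so these are not independent. Serum saline replicate 12 was low in 8: miR-182 (78.1 CPM), miR-1839-5p (94.7), miR-186-5p (117.9), miR-191a-5p (5607), miR-19b-3p (9.97), miR-25-3p (2991), miR-30b-5p (39.9) and miR-342-3p (19.9). PFC saline replicate 12 was low in miR-9a-5p (70706 CPM), miR-127-3p (22583) and miR-1839-5p (521.5) and high in miR-128-3p (245029) and miR-122-5p (9.24). PFC saline replicate 8 was low in miR-25-3p (329.4 CPM) and high in miR-425-3p (23.2).

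NAc heroin replicate 2 was high in miR-122-5p (97.0 CPM), miR-142-3p (13.9) and miR-29b-3p (423.6), and PFC heroin replicate 2 was high in miR-122-5p (86.9). NAc saline replicate 12 was low in miR-127-3p (28877 CPM) and high in miR-29b-3p (308.9), and NAc saline replicate 7 was high in miR-126a-3p (4847). NAc heroin replicate 3 was high in miR-34c-3p (4.80 CPM) and PFC heroin replicate 3 low in miR-25-3p (452.0). Serum heroin replicate 2 was low in miR-210-3p (4.85 CPM) and serum heroin replicate 3 low in miR-29b-3p (12.3).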

How the results depend on the processing

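The number of names whose serum effect differed from the mean brain effect was 2 in the fit reported, 8 in DESeq2 and 0 in limma-voom with weights per tissue (9 at an unadjusted p under 0.05). It was 1 in limma on log2(TPM + 1) and on log2(TPM + 10), where the name was miR-34c-3p and not miR-9a-5p. It was 1 with repeated names counted once, 0 in the exact permutation test, and 2 to 6 with single libraries left out. Serum minus PFC gave 2, and 0 in limma-voom, 0 and 1 in limma, 1 with repeated names once, 0 without PFC heroin 5 and saline 8 and 12, 0 with scaling within tissues and without serum saline 11, and 0 to 4 with single libraries left out, 0 being without serum saline 11. Serum minus NAc gave 2, and 9 in DESeq2, 0 in limma-voom, 1 and 1 in limma, 5 without serum saline 10 to 12, 7 without PFC heroin 5 and saline 8 and 12, 0 with scaling within tissues and without serum saline 11, and 2 to 11 with single libraries left out, 11 being without serum saline 7. The mean effect over tissues gave 0, and 2 in DESeq2, 1 without serum saline 10 to 12 and 0 to 2 with single libraries left out. The serum effect gave 4, and 0 in limma-voom, 1 and 1 in limma, 0 with each tissue fitted alone, 2 to 10 with single libraries left out, and 2 with library size alone, with a count minimum of 1, with 10 counts in all 36 libraries, with no filter and with repeated names once. The causes were not tested.

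The correlation of serum and brain effects was -0.21 (-0.29 to -0.11 with single libraries left out), 0.056 with no filter and 0.084 without serum saline 10 to 12. The share of the same sign was 48.1% (43.5% to 53.2% with single libraries left out) and 31.4% with no filter. Intervals within a log2 value of 1 numbered 38 to 66 with single libraries left out.

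Without serum saline 10 to 12, signs turned for miR-9a-5p (0.41), miR-127-3p (0.69), miR-379-5p (0.71), miR-129-5p (2.01), miR-128-3p (0.29), miR-451-5p (-0.27), miR-1-3p (0.10), miR-30b-5p (-0.021) and the mean effect of miR-25-3p (-0.0092). miR-128-3p also turned to 0.17 in both limma fits and the exact test, 0.011 with scaling within tissues, 0.15 with library size alone and 0.25 with scaling within tissues and without serum saline 11, and it ranged from -0.47 to 0.15 with single libraries left out. miR-122-5p was 0.78 without PFC and NAc heroin 2. miR-144-5p was 0.16 on log2(TPM + 1) and in the exact test and 0.21 on log2(TPM + 10). miR-219a-2-3p was -0.023 without PFC heroin 5 and saline 8 and 12, and -0.26 to 0.65 with single libraries left out. miR-451-5p ranged from -0.11 to 0.53 likewise.

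With the replicate number as a block, 0 names passed for serum against brain (17 at an unadjusted p under 0.05), 0 for serum against PFC and 0 for serum against NAc. Same-numbered libraries did not all deviate together. Their correlations ran from -0.15 to 0.23 between serum and PFC (median 0.11), and 3 of 12 serum libraries correlated best with their own number. Between serum and NAc they ran from -0.14 to 0.27 (median 0.09, 3 of 12). Between PFC and NAc they ran from -0.14 to 0.78 (median 0.24, 5 of 12), with 7 of 12 over 0.1. These values do not decide whether the numbers pair the libraries, so pairing is not known. The fit reported has no block and treats all libraries as separate. The block leaves no value for an effect within a tissue, and fits of each tissue alone give no test of the difference. Depth limits low serum levels: 1 count in the shallowest serum library stood for 6.35 CPM. The exact test, scaling within tissues without serum saline 11, and leaving out PFC and NAc heroin 2 were added after seeing the data.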
